A study of Mus musculus with 2 samples.

Results

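A set of 10 genes of iron handling, among 24315 genes named by a single symbol on the arrays, was described in peritoneal macrophages from HDAC11 knockout and wild-type mice. They cover iron uptake and movement between compartments (Tfrc, Slc11a2 and Slc11a1), storage (Fth1 and Ftl1), heme breakdown (Hmox1), export (Slc40a1 and Cp), iron sensing (Ireb2) and capture of iron-binding siderophores (Lcn2). The genes were listed by symbol, and every main probeset whose symbol was only that of a member was taken, which gave 15 of 33641 main probesets. The list was drawn up with the signals of these arrays known, so all values below are descriptions and none carries a test.

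The knockout group was 1 array of RNA from C57BL/6 mice with the genotype HDAC11 knockout, and the wild-type group was 1 array of RNA from C57BL/6 mice. In both, the abdomen had been irritated with thioglycollate to elicit macrophages. The growth protocol has the cells kept overnight in medium with serum and no treatment, with RNA taken from those that adhered, whereas the sample descriptions call them freshly isolated, so the state of the cells is not settled by the labels. The sources used here do not say how many mice were pooled, their age or sex, which allele was used or in which tissues the gene is lost. With 1 array per genotype no difference has a replicate check, an error or a p-value. Values are the authors' RMA signals on a linear scale, where RMA is background correction, quantile normalization and a summary over a probeset's probes. Differences are log2 of the HDAC11 knockout signal minus log2 of the wild-type signal. Signals of different probesets cannot be set against each other as amounts of RNA, so comparisons run between the arrays within a probeset.

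Macrophages are the main recyclers of iron: they take up aged red cells, break down the heme and return the iron to the blood. Transferrin-bound iron enters through the transferrin receptor and leaves the endosome through a divalent metal transporter, surplus iron is held in ferritin, and ferroportin is the known route of iron out of the cell. Iron regulatory proteins bind hairpins called iron-responsive elements when iron is scarce, which stabilises the transferrin receptor mRNA and blocks translation of ferritin and ferroportin mRNAs. An array reads mRNA levels, so control of translation is not seen in these signals.

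Hdac11, the targeted gene, had similar signals of 147.2 on the knockout-labelled and 134.5 on the wild-type-labelled array. Both lay below the signal floor used here, and no source at hand says whether the probes cover the deleted part, so this signal checks nothing and every direction rests on the label. The floor was a signal of 159, the median over all named genes of the brighter array's signal, and 12158 genes reached it on at least 1 array. All 9 measured macrophage identity genes reached the floor, with a median difference of 0.00, while 0 of 8 measured erythroid genes did. Above the floor, resident peritoneal macrophage genes had a median of -0.20 (3 higher, 6 lower on the knockout-labelled array). Mesothelial and fibroblast genes had one of -0.21 (1 higher, 7 lower). Over all measured genes of each list the medians were -0.16 (3 higher, 7 lower) and -0.12 (4 higher, 10 lower). Of 10 measured mast cell and eosinophil genes, 2 reached the floor, both higher on the knockout-labelled array, with a median of 0.69. Over all 10 the median was 0.06, with 6 higher and 4 lower. The mast cell carboxypeptidase Cpa3 gave 366.0 on the knockout-labelled and 168.7 on the wild-type-labelled array (1.12). The mast cell protease genes Tpsb2 (0.77) and Cma1 (0.48) were below the floor on both, as were Kit (0.06) and Ms4a2 (-0.11). The part of these cells in the results below was not tested. Probesets for intron controls, 5331 in all, had a median of -0.36, against 0.02 over all 24315 genes, with no floor applied to either. This difference in a whole class of probesets has no replicate check, and its cause was not tested. In bulk RNA, fewer cells of a type and less RNA per cell cannot be told apart.

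The genes for the main importer and the main exporter of iron were both higher on the knockout-labelled array. Tfrc and Slc40a1 passed 1.5-fold, the size of difference counted here. The other 6 iron genes above the floor did not, with differences between -0.17 and 0.05. Among these, Ftl1 was read from its brightest probeset (0.05), which is not unique. Its unique probeset gave -0.18, and 2 of its 6 probesets passed 1.5-fold, so no direction is given for Ftl1. Of the genes above the floor, 0.543% were higher by 1.5-fold or more, 1.01% were lower and 1.55% were past that size in either direction. Of the 8 iron genes above the floor, 2 were higher by that size and 0 lower. The list was chosen on these signals, so nothing is read from that share. The median of the 8 genes was -0.00 on the log2 scale, against -0.01 over all genes above the floor. Cp and Lcn2 stayed below the floor on both arrays.

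**Figure D1:**
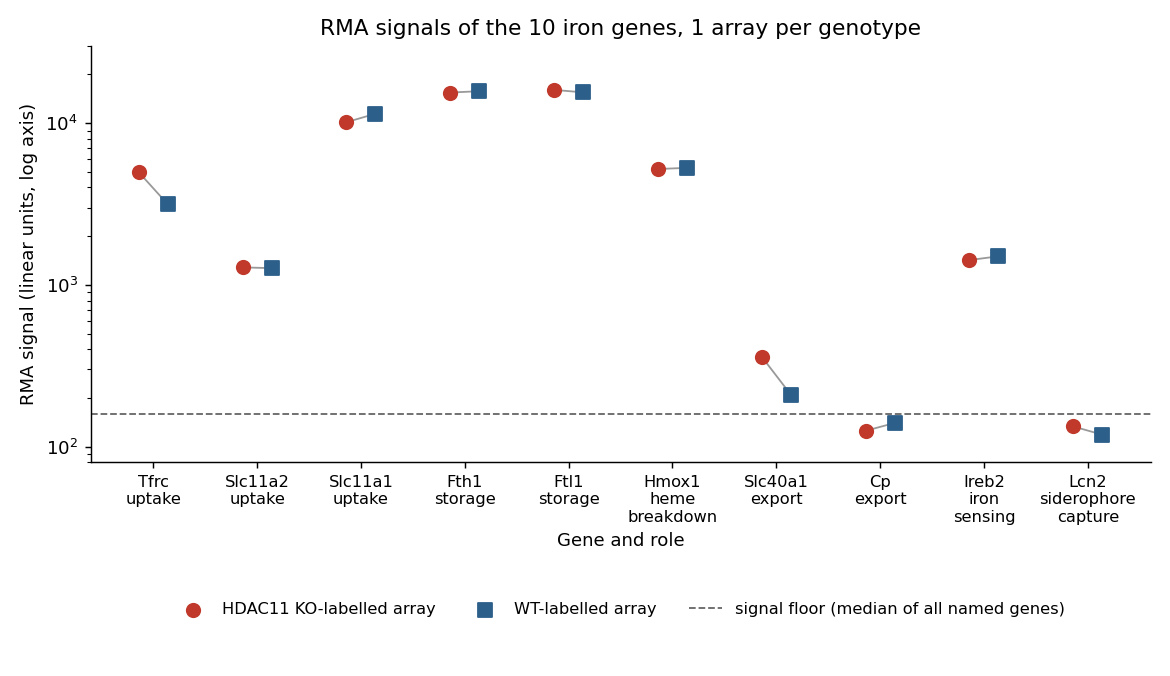
RMA signal (linear units on a log axis) of each of the 10 iron genes on the HDAC11 KO-labelled array (circles) and the WT-labelled array (squares), 1 array each, with the signal floor of 159 as a dashed line. Tfrc and Slc40a1 stand apart between the arrays, the other pairs lie close together, and Cp and Lcn2 lie under the floor. Ftl1 is shown by its brightest probeset, which is not unique. Heights of different genes are not comparable.

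For Tfrc, which passed 1.5-fold, and for the ferritins, the 250 bases before the annotated starts are shown side by side. The transferrin receptor and the ferritins lie on opposite arms of the iron response. That response acts on their mRNAs, which these windows do not hold. The sequences are from RefSeq in build GRCm38.p6, which held a window for 7 of the 10 genes, Slc40a1, Slc11a2 and Hmox1 not among them. Each window ends at the base before the annotated start nearest to the probeset's start, which for Tfrc and Ftl1 was the same base as in the deposited annotation and for Fth1 lay 57 bases away. They lie at chr16:32608646-32608895 (plus strand, Tfrc), chr19:9982396-9982645 (plus strand, Fth1) and chr7:45459887-45460136 (minus strand, Ftl1). Capitals mark GC boxes (GGGCGG, a site of the Sp1 family) and CCAAT boxes (CCAAT, a site of NF-Y), on either strand.
Tfrc: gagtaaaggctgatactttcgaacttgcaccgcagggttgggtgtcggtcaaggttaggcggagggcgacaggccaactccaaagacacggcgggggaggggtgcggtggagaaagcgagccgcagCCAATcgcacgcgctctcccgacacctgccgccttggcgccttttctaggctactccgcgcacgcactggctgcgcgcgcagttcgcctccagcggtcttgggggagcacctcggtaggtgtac
Fth1: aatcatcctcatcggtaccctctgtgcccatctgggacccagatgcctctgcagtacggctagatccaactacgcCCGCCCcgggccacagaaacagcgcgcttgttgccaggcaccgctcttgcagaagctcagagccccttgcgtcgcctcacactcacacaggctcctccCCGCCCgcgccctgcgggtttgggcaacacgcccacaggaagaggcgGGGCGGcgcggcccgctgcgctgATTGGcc
Ftl1: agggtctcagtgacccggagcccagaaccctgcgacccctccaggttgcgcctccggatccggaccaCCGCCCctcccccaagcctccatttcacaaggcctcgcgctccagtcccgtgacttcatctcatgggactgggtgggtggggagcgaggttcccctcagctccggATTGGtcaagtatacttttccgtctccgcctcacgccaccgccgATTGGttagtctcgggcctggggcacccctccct

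Tfrc had 1 CCAAT box, 124 to 120 bases before the start, and no GC box in this window. Fth1 had 3 GC boxes and 1 CCAAT box, and Ftl1 had 1 GC box and 2 CCAAT boxes, with no overlap among the marked stretches. Over 32851 RefSeq windows of the same length, 33.9% held a CCAAT box and 32.7% a GC box. The hypoxia response core ACGTG, the antioxidant response core TGACNNNGC and the TATA core TATAA were searched on both strands too and were not in these 3 windows, while 16.6%, 10.2% and 22.8% of all windows held them. The windows were 64.8% G or C for Tfrc, 66.8% for Fth1 and 65.2% for Ftl1. These matches describe the letters of a short window and say nothing of binding.

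Tfrc encodes the transferrin receptor, through which most cells take up iron bound to transferrin. Its probeset 17324835 (chromosome 16, 32608896 to 32632794, plus strand, 37 probes along the transcript, unique by the deposited annotation) gave 4972 on the knockout-labelled array and 3148 on the wild-type-labelled array. The knockout-labelled signal was thus higher by 0.66 on the log2 scale, or 1.58-fold, with both signals well above the floor. Of the 12158 genes above the floor, 43 had a larger positive difference. Among the 500 genes of nearest mean signal the differences had an SD of 0.14, a spread over genes on these 2 arrays and not one between replicates. Coordinates here and below are those of the deposited annotation, and its build is not stated. The unique probeset of each of the 10 genes overlapped the RefSeq gene of the same symbol in GRCm38.p6.

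Slc11a2 encodes the divalent metal transporter that moves iron out of the endosome once transferrin has released it. Its probeset 17321683 (chromosome 15, 100387898 to 100425072, minus strand, 19 probes) gave 1283 on the knockout-labelled and 1269 on the wild-type-labelled array, a difference of 0.02. The transporter of the step after receptor uptake thus had nearly equal signals on both arrays.

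Slc11a1 encodes the related metal transporter of the phagosome, and C57BL/6 mice carry a loss-of-function allele of it, shared by both groups. Probeset 17214197 (chromosome 1, 74375203 to 74386062, plus strand, 33 probes) gave 10131 on the knockout-labelled and 11427 on the wild-type-labelled array. The difference of -0.17, or 1.13-fold lower on the knockout-labelled array, did not reach 1.5-fold, and 1942 of the genes above the floor lay lower still.

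Fth1 encodes the ferritin heavy chain, which oxidises iron for storage. Probeset 17357418 (chromosome 19, 9982703 to 9985092, plus strand, 20 probes) gave 15454 on the knockout-labelled and 15750 on the wild-type-labelled array, a difference of -0.03. These signals lie near the top of the scale, where the highest probesets reached 20359 on the knockout-labelled and 19627 on the wild-type-labelled array, and bright probesets can respond less than in proportion. How far this compressed a difference in Fth1 was not tested.

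Ftl1 encodes the ferritin light chain, which helps form the iron core, and it has many processed copies in the mouse genome. Of its 6 probesets, 1 was unique by the deposited annotation and 5 could also bind other transcripts. The unique probeset 17490830 (chromosome 7, 45457944 to 45459886, minus strand, 13 probes) gave 6624 on the knockout-labelled and 7503 on the wild-type-labelled array, a difference of -0.18. This probeset covers the annotated gene and was the only 1 of the 6 to be lower on the knockout-labelled array.

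The differences of the non-unique Ftl1 probesets ranged up to 1.57-fold higher on the knockout-labelled array. The brightest were 17340522 on chromosome 17 and 17418483 on chromosome 4, with the same signals to every digit, 16050 on the knockout-labelled and 15493 on the wild-type-labelled array (0.05), and they count as 1 measurement. Probeset 17288650 on chromosome 13, at the RefSeq pseudogene Ftl1-ps1, gave 15369 on the knockout-labelled and 15363 on the wild-type-labelled array (0.00). These bright signals lie near the top of the scale, as those of Fth1 do. How far this compressed their differences was not tested. The dimmer probesets stood further apart. Probeset 17547620 on chromosome 11 gave 994 on the knockout-labelled and 657 on the wild-type-labelled array (0.60). Probeset 17477832, on the plus strand opposite Ftl1 with 8 probes, gave 545 on the knockout-labelled and 347 on the wild-type-labelled array (0.65).

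By the rule that the brightest probeset stands for a gene, Ftl1 had a difference of 0.05, against -0.18 from the unique probeset alone and 0.20 from the mean of all 6. That mean takes the probesets with identical signals as separate ones. The direction for the light chain thus depended on the probeset, and no direction is given for the gene. The cause of the disagreement was not tested.

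**Figure D2:**
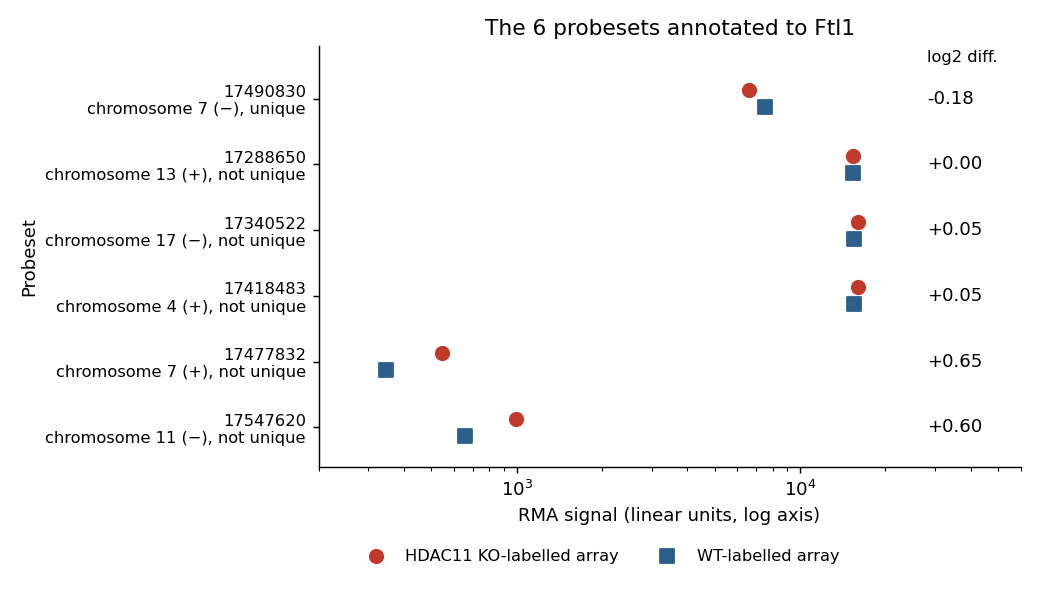
RMA signals (linear units on a log axis) of the 6 probesets annotated to Ftl1 on the HDAC11 KO-labelled array (circles) and the WT-labelled array (squares), with the log2 difference at the right. The unique probeset is lower on the HDAC11 KO-labelled array (-0.18), and the 2 dim non-unique probesets are higher (0.65 and 0.60).

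Hmox1 encodes the inducible heme oxygenase, which opens the heme ring and frees its iron. Probeset 17502573 (chromosome 8, 75093591 to 75100596, plus strand, 21 probes) gave 5203 on the knockout-labelled and 5290 on the wild-type-labelled array, a difference of -0.02. Of the genes above the floor, 52.7% had a more positive difference and 47.3% a more negative one, so this gene stood at the middle of the arrays.

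Slc40a1 encodes ferroportin, the iron exporter. Its probeset 17222777 (chromosome 1, 45908070 to 45925594, minus strand, 24 probes, unique) gave 359.5 on the knockout-labelled array and 209.6 on the wild-type-labelled array. The knockout-labelled signal was higher by 0.78 on the log2 scale, or 1.71-fold, and both signals were above the floor though not far from it. With 16 added to each signal, which shrinks differences of dim probesets, it was 0.73. Of the genes above the floor, 30 had a larger positive difference, and the 500 genes of nearest mean signal had an SD of 0.23.

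Ferroportin is abundant in the red pulp macrophages of the spleen, so other markers of those cells are given beside it. Spic, the transcription factor that defines them, gave 64.0 on the knockout-labelled and 68.6 on the wild-type-labelled array, and the hemoglobin scavenger receptor Cd163 gave 79.9 on the knockout-labelled and 77.0 on the wild-type-labelled array, all below the floor. Of the 6 markers in that list 4 reached the floor, Slc40a1 itself higher and 3 lower, none of them beyond -0.09.

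Cp encodes ceruloplasmin, the copper oxidase that works with ferroportin in loading iron onto transferrin. Probeset 17396260 (chromosome 3, 19957054 to 20009145, plus strand, 19 probes) gave 125.3 on the knockout-labelled and 140.0 on the wild-type-labelled array (-0.16). Both signals were below the floor, so the size of this difference is uncertain.

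Ireb2 encodes the iron regulatory protein that is degraded when iron is plentiful. Probeset 17517424 (chromosome 9, 54863755 to 54912534, plus strand, 40 probes) gave 1424 on the knockout-labelled and 1502 on the wild-type-labelled array, a difference of -0.08. Its level is known to be set mainly at the protein, which the array does not read.

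Lcn2 encodes lipocalin-2, which binds bacterial siderophores and so withholds iron, and which neutrophil granules also hold. Probeset 17383892 (chromosome 2, 32384633 to 32387797, minus strand, 28 probes) gave 133.3 on the knockout-labelled and 118.5 on the wild-type-labelled array (0.17), both below the floor. Among neutrophil markers, 5 of 13 reached the floor. Their median was 0.02, with 3 higher, and over all 13 it was 0.14, with 9 higher and 4 lower. S100a8 was the only marker of that list above the floor to pass 1.5-fold, at 375.6 on the knockout-labelled and 203.1 on the wild-type-labelled array (0.89). The defining markers Ly6g and S100a9 were below the floor on both arrays. The part of neutrophils in the Lcn2 signal was not tested.

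**Figure D3:**
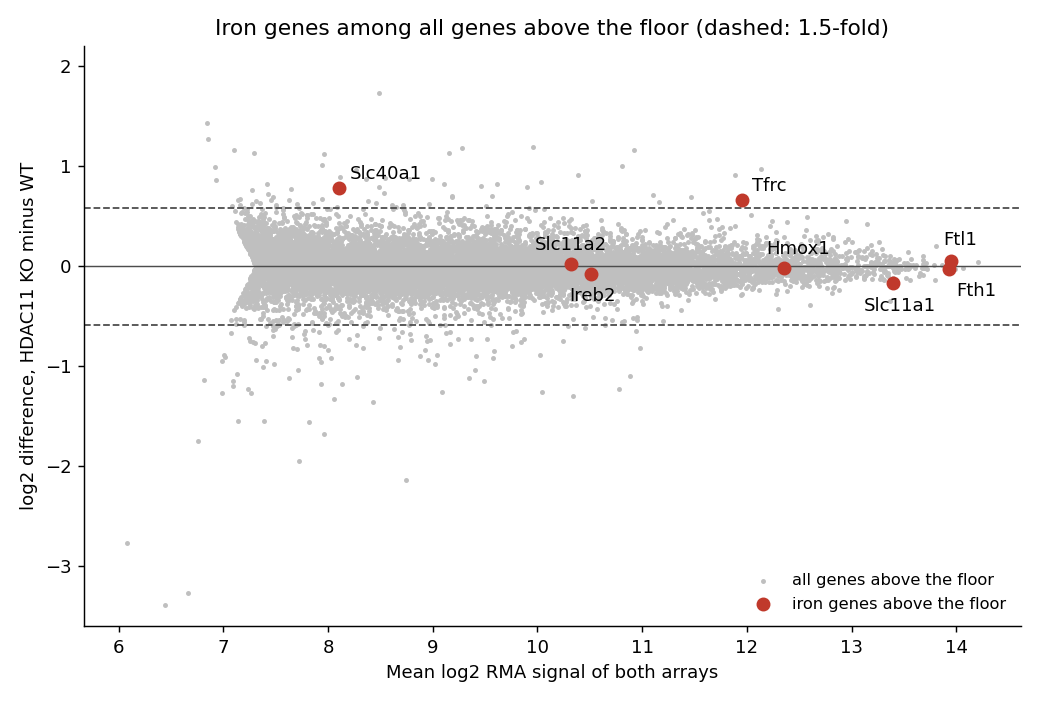
Mean log2 RMA signal of both arrays (horizontal) against the log2 difference, HDAC11 KO minus WT (vertical), for all 12158 genes above the floor (grey) and the 8 iron genes above it (red), with dashed lines at 1.5-fold. Slc40a1 (0.78) and Tfrc (0.66) lie above the upper line, and the other 6 lie between -0.17 and 0.05. Ftl1 is shown by its brightest probeset, which is not unique.

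The wider iron and heme genes were counted in the same way. Of 96 other genes in 8 lists, all were measured and 74 reached the floor, 42 higher, 31 lower and 1 equal, with a median of 0.04. At 1.5-fold or more, 1 was higher and 1 lower, beside 0.543% and 1.01% of all genes above the floor, and nothing is read from counts this small. These lists were written with earlier results of the arrays known.

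Genes of iron import and reduction split evenly, with 4 higher and 4 lower of 8 above the floor and none past 1.5-fold. Trf, the transferrin that Tfrc binds, gave 7992 on the knockout-labelled and 6543 on the wild-type-labelled array (0.29), and the metal reductase Steap4 gave 189.3 on the knockout-labelled and 230.8 on the wild-type-labelled array (-0.29). The ligand differed in the same direction as its receptor, by less, while Slc11a2, of the next step of uptake, was at 0.02. A link between these differences was not tested.

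Iron chaperones, ferritin turnover genes and iron sensors had a median of 0.18, and of 9 above the floor 7 were higher and none passed 1.5-fold. Over all 11 measured the median was 0.08, with 8 higher and 3 lower. Hfe, which binds the transferrin receptor, gave 709.8 on the knockout-labelled and 585.1 on the wild-type-labelled array (0.28). Fbxl5, the ligase component that marks iron regulatory proteins for degradation, gave 1114 on the knockout-labelled and 964 on the wild-type-labelled array (0.21).

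Mitochondrial iron import and iron-sulfur cluster genes were higher in 12 of 17 and lower in 5, all 17 above the floor, with a median of 0.12. None reached 1.5-fold, and the range was -0.13 to 0.29. The co-chaperone Hscb gave 367.0 on the knockout-labelled and 299.6 on the wild-type-labelled array (0.29), and the cluster assembly factor Isca2 gave 1373 on the knockout-labelled and 1187 on the wild-type-labelled array (0.21).

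Heme synthesis genes split, with 3 of 8 genes higher, 4 lower and 1 equal, and a median of -0.00. Cpox, coproporphyrinogen oxidase, gave 595.7 on the knockout-labelled and 518.3 on the wild-type-labelled array (0.20), and Alas1, the first enzyme of the pathway outside red cells, gave 4523 on the knockout-labelled and 4150 on the wild-type-labelled array (0.12). The equal gene was Uros, at 294.8 on both arrays, and it was named after its values were seen.

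Partners of heme uptake, transport and breakdown were higher in 7 of 10 genes above the floor and lower in 3, with a median of 0.04. The hemoglobin binder Hp gave 298.3 on the knockout-labelled and 256.6 on the wild-type-labelled array (0.22), and the constitutive heme oxygenase Hmox2 gave 4990 on the knockout-labelled and 4624 on the wild-type-labelled array (0.11). No gene of this list passed 1.5-fold.

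Of the hepcidin and systemic iron regulators, 5 of 14 reached the floor. Hepcidin itself, the liver hormone that removes ferroportin from the cell surface, was below it, with Hamp at 17.8 on the knockout-labelled and 16.7 on the wild-type-labelled array. Smad7, an inhibitor of the signalling that induces hepcidin in liver and of TGF-beta signalling in many cells, was lower at 280.0 on the knockout-labelled and 461.4 on the wild-type-labelled array. Its difference of -0.72, or 1.65-fold, was the 1 lower value past 1.5-fold among the 74 genes.

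Transcription factors of the heme and ferritin genes stayed within 1.5-fold, with 4 of 7 higher, 3 lower and a median of 0.02. Over all 9 measured the median was -0.05, with 4 higher and 5 lower. Keap1, which holds NRF2 back, gave 553.3 on the knockout-labelled and 488.1 on the wild-type-labelled array (0.18), and Hif1a gave 3008 on the knockout-labelled and 3391 on the wild-type-labelled array (-0.17). Other targets of NRF2 and BACH1, the factors known to control Hmox1, Slc40a1 and the ferritins, were higher in 4 of 10 and lower in 6, with a median of -0.03. Of these Me1, malic enzyme, passed 1.5-fold at 261.0 on the knockout-labelled and 152.9 on the wild-type-labelled array (0.77), the dimmer signal below the floor.

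**Figure D4:**
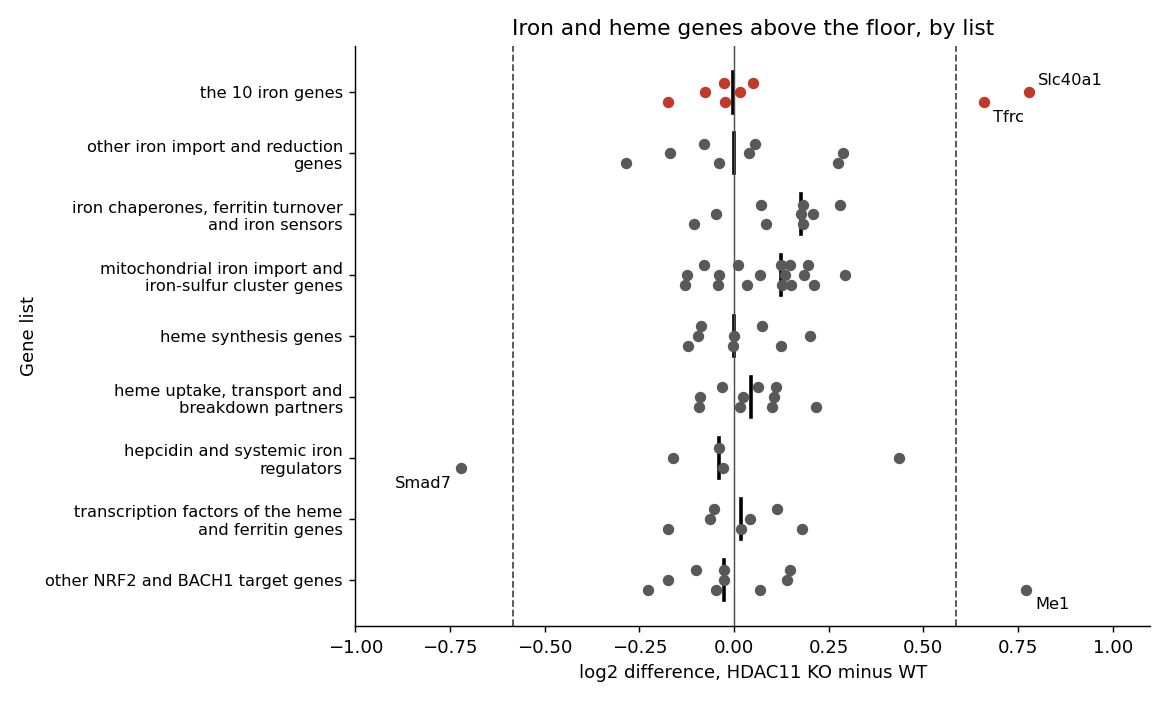
Log2 difference, HDAC11 KO minus WT (horizontal), of each gene above the floor in the list of 10 iron genes (red) and 8 further iron and heme lists (grey), with black bars at the list medians and dashed lines at 1.5-fold. Tfrc, Slc40a1 and Me1 lie beyond the upper line and Smad7 beyond the lower one. Ftl1 is shown by its brightest probeset, which is not unique.

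The name of the authors' deposited table of selected probesets gives a 1.5-fold change, so its members follow from these same signals. It held 2816 probesets, or 6.81% of all 41345, controls included, and 4 of the 15 iron probesets. The iron genes were listed with these signals known, so nothing is read from that share. The 4 were the probesets of Tfrc and Slc40a1 and the non-unique Ftl1 probesets 17477832 and 17547620, which give Ftl1 no direction, and in the authors' deposited table their folds were 1.58, 1.71, 1.57 and 1.51.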

How the data were processed

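The authors deposited a workbook of RMA intensity values on a linear scale for 41345 probesets, made with Affymetrix Expression Console 1.2.1 per the submitters' processing notes, and a series matrix of log2 values deposited for the same arrays, equal to log2 of the workbook to within 5e-05. The deposited fold column divides the brighter by the dimmer signal, with a minus sign where wild type is brighter. Per the labels' protocols, 100 ng of RNA gave the cDNA and 5.5 ug of cDNA was labelled. A single array per group allowed no test and sets the precision.

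The probeset of highest mean log2 signal stood for each of 24315 genes. Genes were counted at 1.5-fold among the 12158 that reached the floor (log2 7.31) on the brighter array. Of 175 distinct list names, 172 were measured, 5 of them through a RefSeq synonym. The members and lists were chosen with earlier results of these data known. All 10 iron genes and Hdac11 were named, and of each other list described up to 4 members past 1.5-fold or, where none passed, the 2 with the largest differences; markers below the floor were named as such. Of the marker lists, macrophage identity (median 0.00, with Mertk at 0.27 and Itgam at -0.17), resident macrophages, neutrophils, erythroid cells, stromal cells, red pulp macrophages, and mast cells and eosinophils were examined. Alternatives were the series matrix, scaling (median, quantile over main probesets, lowess), the mean of probesets, an offset of 16, other floors and unique probesets. The counting step was tested on simulated data. Python 3.11.15, numpy 2.4.6, pandas 2.3.3, statsmodels 0.14.6 and matplotlib 3.10.9 were used.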

Additional observations from a re-analysis of the deposited data

How the results depend on the processing

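No paired analysis was possible because each genotype had 1 array. A gene's difference was taken to stay when it moved by less than 1 SD of the 500 genes of nearest signal, a list median by less than the SD over all genes above the floor (0.21), and a count when it stayed within 1.5 times. Tfrc lay between 0.66 and 0.67 and Slc40a1 between 0.73 and 0.79 under every alternative other than the floors. Of such values for the 10 iron genes, 68 stayed and 2 moved, both of Ftl1: 0.20 with the mean of its probesets and -0.18 with unique probesets only, an alternative chosen after seeing the data. Many of the 68 could not move. The 9 genes with 1 probeset keep their values under the mean of probesets and unique probesets only. The series matrix holds the same signals to within 5e-05. The count of 68 is therefore no measure of stability. A floor at the 75th percentile (signal 668) left 1 iron gene higher by 1.5-fold, since Slc40a1 lies below it. The median of the iron genes lay between -0.03 and 0.01. Over all genes, no floor gave 250 higher and 258 lower by 1.5-fold, against 66 and 123, the floor at the 25th percentile gave 121 higher, and the one at the 75th gave 23 higher and 35 lower. Of list counts and medians, 402 stayed and 15 moved.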

Other observations

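Beside Cpa3, the mast cell tryptase Tpsb2 gave 109.7 on the knockout-labelled and 64.5 on the wild-type-labelled array, below the floor. The other mast cell and eosinophil gene above the floor was Siglec5 at 0.27. Of resident peritoneal macrophage genes past 1.5-fold, Selp (-0.82) and Cxcl13 (-0.60) were lower and the coagulation factor gene F5 (0.61) was higher. Cxcl13 lay just past that size and fell short of it under median scaling (-0.58), quantile scaling (-0.56) and lowess scaling (-0.57), while Selp and F5 stayed past it. Stromal genes held Pdgfra (-0.52) and the collagen gene Col1a2 (-0.34), neither past 1.5-fold. The part of any of these cells in the signals of Tfrc and Slc40a1 was not tested.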
